A study of Mus musculus with 2 samples.

Results

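The smooth muscle cells of a sort of mouse lung cells were chosen by a gate on their transcripts. A barcode with at least 500 genes and at most 10% mitochondrial transcripts was kept. It was a member with at least 10 unique molecular identifiers (UMIs, each standing for 1 captured transcript) of Acta2 and at least 4 UMIs summed over Myh11, Actg2, Lmod1 and Synpo2. Members also had, summed, at most 1 UMI of the pericyte genes Cox4i2 and Higd1b, under 2 UMIs of Cthrc1, a gene of fibrotic fibroblasts, and 0 of Ptprc, Pecam1 and Epcam, which mark immune, endothelial and epithelial cells. The gate took 309 of 9900 kept barcodes, 156 of 4468 in the bleomycin library and 153 of 5432 in the saline library. Their shares were 3.49% after bleomycin (95% Clopper-Pearson interval 2.97 to 4.07) and 2.82% after saline (2.39 to 3.29). The gate used measured values of these genes, so the levels of those genes describe the choice and are no finding.

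Both groups were mice of the genotype Lepr-Cre;Rosa26-tdTomato, 8 to 10 weeks old, and live tdTomato-positive lung cells were sorted from them after bleomycin, which breaks DNA and scars the lung, or after saline. In these mice Lepr, which encodes the leptin receptor, drives a Cre that switches on the red reporter for good, so a sorted cell may have had Lepr activity only in the past. Each group is 1 droplet library. The sources used here do not give the dose, the day after treatment or the number of mice. With no replicates no test between the groups was possible, and the spread between mice is unknown. Intervals cover counting error only.

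Smooth muscle cells shorten when calcium activates myosin light chain kinase, which phosphorylates the light chain of smooth muscle myosin and lets it pull on actin filaments. In the lung they ring the airways, where they set airway tone, and the arteries and veins, where they set vascular resistance. Many contractile genes are switched on by serum response factor with its partner myocardin through CArG boxes, short sites with CC and GG on either side of a run of A and T.

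The promoters of Acta2 (smooth muscle alpha-actin), Actc1 (cardiac alpha-actin) and Cnn1 (calponin, an actin-binding brake on myosin) are shown because the gate rests on Acta2 and the contrasts among the gated cells turn on Actc1 and Cnn1. The sequences come from RefSeq on build GRCm38.p6, run 5′ to 3′ on the strand of the gene and cover 250 bases before to 50 after its start. Capitals mark a CArG box, searched as CC, 6 bases of A or T, and GG on either strand, with up to 1 of the 6 inner bases allowed to be C or G. The Acta2 window is chr19:34255324-34255623 on the minus strand, the Actc1 window chr2:114052826-114053125 on the minus strand, and the Cnn1 window chr9:22099003-22099302 on the plus strand.
Acta2: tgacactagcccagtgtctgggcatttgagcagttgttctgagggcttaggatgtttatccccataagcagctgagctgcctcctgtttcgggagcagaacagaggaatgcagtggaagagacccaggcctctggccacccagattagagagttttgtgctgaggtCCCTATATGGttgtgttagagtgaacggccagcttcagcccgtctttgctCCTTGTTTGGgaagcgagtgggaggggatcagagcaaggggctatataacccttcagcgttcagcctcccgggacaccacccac
Actc1: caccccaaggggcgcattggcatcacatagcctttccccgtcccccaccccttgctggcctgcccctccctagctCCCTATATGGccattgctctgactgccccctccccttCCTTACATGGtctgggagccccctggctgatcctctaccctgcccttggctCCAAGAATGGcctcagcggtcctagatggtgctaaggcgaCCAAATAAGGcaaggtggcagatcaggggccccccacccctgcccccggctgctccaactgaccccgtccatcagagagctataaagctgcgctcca
Cnn1: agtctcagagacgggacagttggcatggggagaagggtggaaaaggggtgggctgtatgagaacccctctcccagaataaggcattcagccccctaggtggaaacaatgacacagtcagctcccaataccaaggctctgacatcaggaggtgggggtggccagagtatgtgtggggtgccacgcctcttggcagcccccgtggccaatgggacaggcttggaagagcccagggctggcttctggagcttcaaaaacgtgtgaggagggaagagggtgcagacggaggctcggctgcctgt

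Acta2 held 2 boxes with 1 inner mismatch, starting 84 and 34 bases before the gene start. Actc1 held 4, of which the box starting 47 bases before the start had no mismatch, and the window of Cnn1 held 0. Of 32851 promoters in the table, 9.98% held a box with up to 1 mismatch and 1.63% a box with none. Of the 16 contractile filament genes followed here, 13 had a promoter in the table, 5 of them with a box of up to 1 mismatch and 4 with an exact one. A match describes the letters of this window and does not show a site in use.

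The name of the gate held for nearly all gated cells after saline and for a smaller share after bleomycin. A score of Myh11 (smooth muscle myosin heavy chain), Cnn1, Smtn (smoothelin) and Mylk (myosin light chain kinase) was taken per cell, as log2 of their UMIs per 10000 plus 1. Otsu's method over both libraries set a cut at 13.1 UMIs per 10000. Above it lay 88 of 156 gated cells after bleomycin, or 56.4% (interval 48.2 to 64.3), and 149 of 153 after saline, or 97.4% (93.4 to 99.3). Within 0.5 log2 units of the cut lay 18 gated cells after bleomycin and 9 after saline. Cells above the cut are called Myh11/Cnn1-high and cells below it Myh11/Cnn1-low. This split was chosen after the data were seen, and Myh11 is also a gene of the gate.

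**Figure D1:**
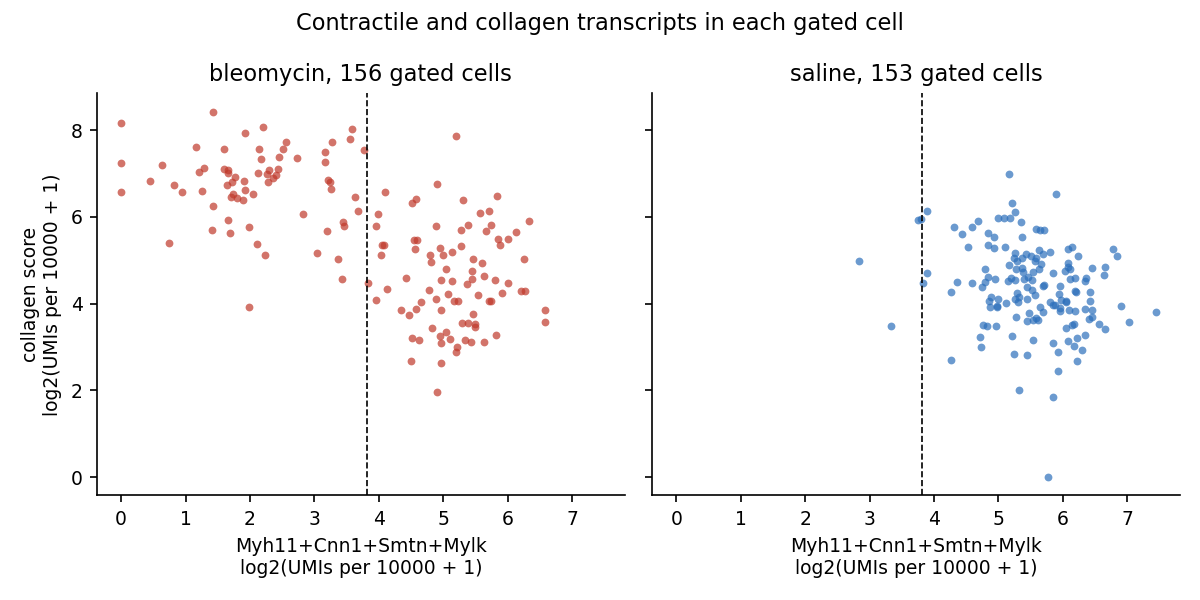
Each point is 1 gated cell, with bleomycin on the left and saline on the right. The x axis gives the UMIs of Myh11, Cnn1, Smtn and Mylk and the y axis those of Col1a1, Col1a2 and Col3a1, both as log2 of UMIs per 10000 plus 1. The dashed line is the cut, left of which lie 68 bleomycin and 4 saline cells.

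The 68 Myh11/Cnn1-low cells after bleomycin had little Myh11, Cnn1 and Actc1, while keeping part of the Acta2 and Actg2 that the gate asked for. Levels are UMIs summed over a group of cells per 1000000 UMIs of that group (UPM), and a gene is called higher or lower only with at least 50 UMIs in the higher group and at least a 2-fold ratio. Log2 ratios use a prior of 1 UPM. Of 3239 genes with at least 50 UMIs in the higher group, 321 (9.91%) were higher and 360 (11.1%) lower in Myh11/Cnn1-high than in Myh11/Cnn1-low cells, with a median log2 ratio of −0.171. Myh11 had 1023 UPM in high cells and 9.75 in low cells, and Cnn1 had 1242 UPM in high cells and 15.8 in low cells. Actc1, which neither the gate nor the score used, had 1427 UPM in high cells and 3.75 in low cells, and was found in 65.9% of high and 4.41% of low cells. Of the 16 contractile filament genes 11 were higher in high cells and 0 were lower. Without Myh11, Cnn1 and Smtn, whose direction the score fixed, 8 of 13 were higher. Of these 8, Acta2, Actg2 and Lmod1 are genes of the gate, so their levels are in part set by the choice of cells. The rest, Actc1, Myl9, Myl6, Tagln and Tpm2, were used by neither the gate nor the score. Summed over the 16, which include genes of the gate and the score, the list had 50072 UPM in high cells and 15230 in low cells.

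The low cells carried more of several fibroblast transcripts. Of 9 measured fibroblast genes 5 were lower in high than in low cells and 0 higher, where 11.1% of all measured genes were lower. Col1a1, a chain of collagen I, had 1053 UPM in high cells and 4508 in low cells, and Timp1, an inhibitor of matrix proteases, had 203 UPM in high cells and 1804 in low cells. Fst (follistatin, which binds activins) had 68.7 UPM in high cells and 697 in low cells. With each cell thinned to 4000 UMIs, 33.8% of bleomycin fibroblasts and 53.6% of bleomycin pericytes held Fst, so it is not particular to fibroblasts. Pdgfra, a receptor typical of lung fibroblasts, was found in 6.82% of high cells and 44.1% of low cells once each cell was thinned to 4000 UMIs, and in 12.5% of high and 72.1% of low cells without thinning. In bleomycin endothelial cells, which should lack it, the thinned share was 4.85% and the unthinned share 14.6%, at a median of 8578 UMIs. Of 13 measured cell cycle genes 12 were lower in high than in low cells, with Top2a, the topoisomerase of dividing cells, at 2.69 UPM in high cells and 45.8 in low cells.

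The low cells were set beside the cells that the gate leaves out for Cthrc1. Those 756 bleomycin cells had at least 10 UMIs of Acta2 and at least 2 of Cthrc1. Acta2 had 3934 UPM in the low cells and 3179 in the Cthrc1-positive cells. Actg2 had 442 UPM in the low cells and 267 in the Cthrc1-positive cells, and Myh11 had 9.75 UPM in the low cells and 3.26 in the Cthrc1-positive cells. These are genes of the gate, and Myh11 also of the score, so how close the levels lie is in part set by the choice of cells. Col1a1 had 4508 UPM in the low cells and 8134 in the Cthrc1-positive cells, and Fst had 697 UPM in the low cells and 446 in the Cthrc1-positive cells. A member may hold at most 1 Cthrc1 UMI and the other cells hold at least 2. Cells on both sides of this limit held Col1a1 and Fst, which neither the gate nor the score used. Thinned to 4000 UMIs, Col1a1 was found in 100% of both groups. Fst was found in 61.8% of low cells and 63.4% of Cthrc1-positive cells. The median depth was 18652.5 UMIs in low cells, 7390.5 in high cells and 18698 in Cthrc1-positive cells. The gate counts UMIs and not shares of a cell's UMIs, so deeper cells pass it at a lower relative level. When each barcode was thinned to 4000 UMIs and gated again, 90 of the 156 bleomycin members stayed, 77 of the 88 high and 13 of the 68 low ones. In the saline library 106 of the 110 members with at least 4000 UMIs stayed. The thinned gate also took 26 bleomycin and 9 saline barcodes that are not members.

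At the limit on Myh11, Actg2, Lmod1 and Synpo2 the bleomycin cells had much Col1a1 and little Cnn1 on both sides. With exactly 4 UMIs of Myh11, Actg2, Lmod1 and Synpo2 there were 16 bleomycin members, with a median of 60 Col1a1 UMIs and Cnn1 in 12.5%. Just outside, with 3 UMIs, were 19 bleomycin cells with a median of 63 Col1a1 UMIs and Cnn1 in 15.8%. The limit on Acta2 had 0 bleomycin members at 10 or 11 UMIs and 1 cell just outside, which had Cnn1 and 10 Col1a1 UMIs, and 4 saline members with 4 cells just outside. In the saline library 6 members had 4 UMIs of the other genes and a median of 2 Col1a1 UMIs, and 3 cells just outside had 3 UMIs. Because of this split the contrast of bleomycin with saline is given over all gated cells and over the Myh11/Cnn1-high ones. The name smooth muscle-like is used for the Myh11/Cnn1-high cells alone.

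Transcripts of other lineages were low in the gated cells, with exceptions that bear on single genes. The 6 endothelial markers summed to 6.74 UPM after bleomycin and 9.95 after saline. The mesothelial marker Msln had 44.3 UPM after bleomycin and 0 after saline, with 33.7% of its UMIs in 1 cell, and the other mesothelial markers Upk3b and Wt1 were at 0. The 6 immune markers summed to 106 UPM after bleomycin and 357 after saline, with Ptprc at 0 by the gate. The 7 epithelial markers summed to 31.3 UPM after bleomycin and 3001 after saline. Sftpc, the surfactant gene of alveolar type 2 cells, was found in 7.69% of gated cells after bleomycin and in 89.5% after saline, while 9.13% of fibroblasts after bleomycin and 96.2% after saline held it. A single saline cell held 75.9% of the surfactant UMIs (Sftpc, Sftpa1 and Sftpb) of all saline members, and a single bleomycin cell held 99.7% of the haemoglobin UMIs. Of the barcode sequences, 33 occur in both libraries, and 0 of these are members in both. The libraries held 61537182 UMIs in 4473 barcodes after bleomycin and 37570380 in 5455 after saline. The gated cells had a median of 10998.5 UMIs (4361 to 39892) after bleomycin and 4849 (2374 to 15886) after saline.

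Over all gated cells the bleomycin library had less contractile and more matrix transcript than the saline library. Of 4107 measured genes 543 (13.2%) were higher and 278 (6.77%) lower after bleomycin, and the median log2 ratio of all measured genes was 0.254, against which the ratios are to be read. With ratios centred at that median 359 were higher and 412 lower. Of the 16 contractile filament genes 1 was higher and 6 were lower, with a median log2 ratio of −0.83. Of the 6 lower genes Acta2, Myh11 and Lmod1 are genes of the gate, so their levels are no finding. The other lower ones were Actc1, Myl9 and Cnn1. Of 18 measured fibrillar collagen and collagen enzyme genes 10 were higher and 0 lower, with a median of 1.71. Of 13 measured cell cycle genes 11 were higher and 0 lower, with a median of 3.17. The group compared held 68 low cells after bleomycin and 4 after saline.

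Over the Myh11/Cnn1-high cells the contrast was smaller. The high cells are part of the gated cells, with 88 of 156 after bleomycin and 149 of 153 after saline. Shared calls are thus in part fixed by the choice of cells. Of 2406 measured genes 105 (4.36%) were higher and 124 (5.15%) lower after bleomycin, with a median log2 ratio of 0.0438. Of the 543 genes higher over all gated cells 71 (13.1%) were also higher over the high cells, which is 67.6% of the 105. Of the 278 lower genes 98 (35.3%) were also lower, which is 79.0% of the 124. Without the 2 cells that held the surfactant and haemoglobin transcripts, 99 genes were higher and 115 lower.

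Without haemoglobin and predicted genes and genes with over 25% of their UMIs in 1 cell, several of the genes with the largest ratios over all gated cells were at 0 in the saline library. Bmper, a secreted regulator of bone morphogenetic proteins (BMPs), had 104 UMIs or 50.1 UPM after bleomycin and 0 after saline, at least 13.4-fold higher when 3 UMIs over the saline group are taken as its limit. Cyp26b1, which breaks down retinoic acid, had 89 UMIs or 42.9 UPM after bleomycin and 0 after saline, at least 11.5-fold higher. Ccnb2, a cyclin of dividing cells, had 108 UMIs or 52.0 UPM after bleomycin and 0 after saline, at least 13.9-fold higher. Fbln2, a matrix protein of elastic tissue, had 152 UPM after bleomycin and 3.73 after saline, and Timp1 had 1231 UPM after bleomycin and 41.1 after saline. Within the bleomycin library these levels lay mostly in the low cells. Ccnb2 had 0 UPM in high cells and 81.0 in low cells, Bmper had 16.1 UPM in high cells and 69.0 in low cells, Cyp26b1 had 4.04 UPM in high cells and 64.5 in low cells, and Fbln2 had 14.8 UPM in high cells and 229 in low cells. In the high cells Timp1 had 203 UPM after bleomycin and 35.8 after saline, while the lowest bleomycin level among fibroblasts, endothelial and immune cells was 126 UPM.

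The 6 filament genes lower after bleomycin over all gated cells (Acta2, Actc1, Myh11, Myl9, Cnn1 and Lmod1) lay within 2-fold over the high cells. Acta2, Myh11 and Lmod1 are genes of the gate. Acta2 had 7439 UPM after bleomycin and 15264 after saline over all gated cells. Over the high cells Acta2 had 13728 UPM after bleomycin and 15576 after saline, a log2 ratio of −0.18. Actc1 had 513 UPM after bleomycin and 2016 after saline over all cells, and 1427 UPM after bleomycin and 2062 after saline over the high cells. Myl9, the regulatory light chain, was lower over all cells with 2059.5 UPM after bleomycin and 4263 after saline, and stood at 4935 UPM after bleomycin and 4355 after saline over the high cells. Tagln (transgelin, an actin-bundling protein) had 10434 UPM after bleomycin and 9829.7 after saline over the high cells. Cnn1 had 1242 UPM after bleomycin and 1709.5 after saline there, and Myh11 had 1023 UPM after bleomycin and 1482 after saline, neither reaching 2-fold, with both genes part of the score that set the group.

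Of the 16 contractile filament genes only Tpm4, a tropomyosin of non-muscle filaments, passed the size rule in the high cells. It had 384 UMIs or 517 UPM after bleomycin (interval 466 to 571) and 183 UMIs or 234 UPM after saline (201 to 270.4), a log2 ratio of 1.14. The other 15 lay within 2-fold, and the list had a median log2 ratio of −0.12. Myh11, Cnn1 and Smtn among them are part of the score, whose cut was the same in both libraries. Near-equal levels of contractile genes in the high cells are thus in part set by that choice. Cell by cell, Acta2 in high cells had a median of 108 UMIs per 10000 after bleomycin (19.4 to 482) and 131 after saline (7.89 to 450), and the groups overlapped over nearly their whole range. Actg2, the enteric actin, had a median of 12.2 UMIs per 10000 after bleomycin (0 to 59.2) and 12.7 after saline (0 to 70.1) in high cells, and overlapped as widely. Actc1 had a median of 3.04 UMIs per 10000 after bleomycin (0 to 86.6) and 11.7 after saline (0 to 118). These medians lie more than 2-fold apart, unlike the summed levels of Actc1 in the high cells. Actc1 was at 0 in part of the cells of both groups, with a thinned share of 64.8% after bleomycin and 76.8% after saline.

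**Figure D2:**
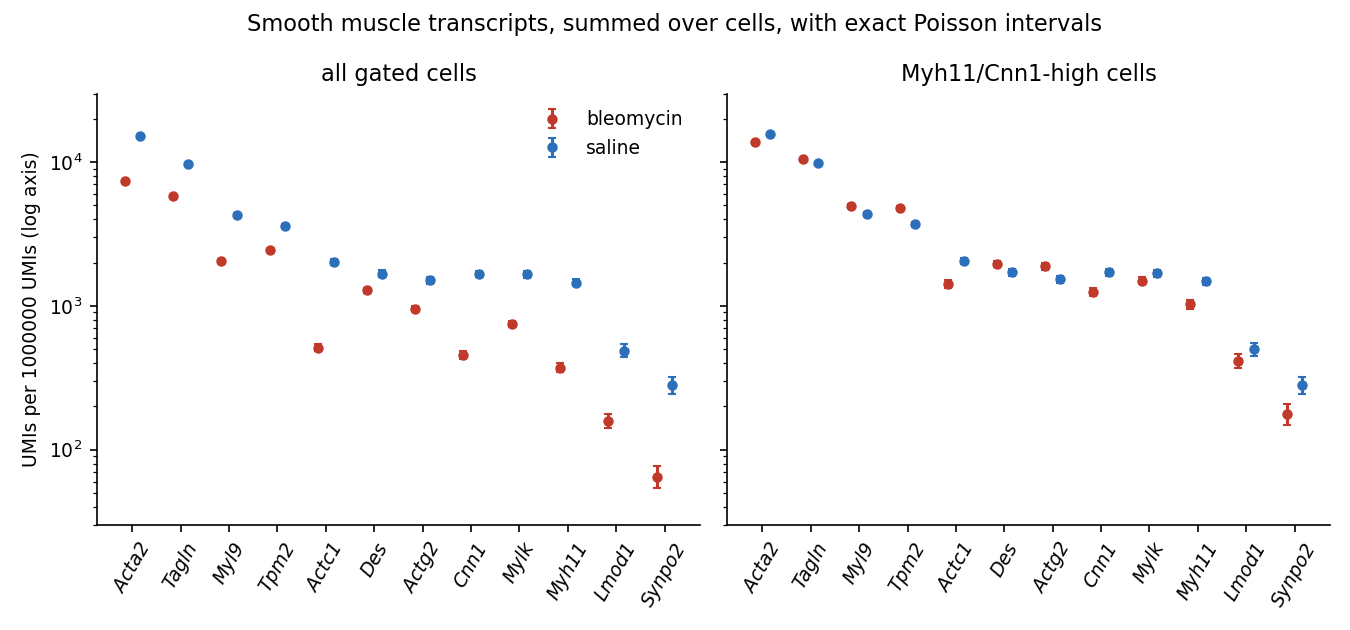
Levels of 12 smooth muscle genes in UMIs per 1000000 UMIs (log axis), summed over all gated cells (left) and over Myh11/Cnn1-high cells (right), for bleomycin and saline with exact 95% Poisson intervals that cover counting error only. Over all gated cells each bleomycin level lies below the saline level, with Actc1 at 513 after bleomycin against 2016 after saline. Acta2, Actg2, Myh11, Lmod1 and Synpo2 are genes of the gate, so their levels describe the choice of cells. Over high cells the pairs lie within 2-fold of each other. Myh11, Cnn1 and Mylk are part of the score that set these cells.

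The proteins that anchor and control the filaments were in part lower over all gated cells and within 2-fold over the high cells. Of 22 measured cytoskeleton and attachment genes 0 passed the size rule in the high cells, and of 17 contraction signalling genes and 6 calcium store and channel genes 0 passed as well, where 4.36% of all measured genes were higher and 5.15% lower. Across the whole gate 4 of 23 cytoskeleton genes, 8 of 17 signalling genes and 3 of 6 calcium genes were lower, and 0 were higher. Of all measured genes across the whole gate 13.2% were higher and 6.77% lower. The 4 cytoskeleton genes include Synpo2, whose level the gate used. Des, the intermediate filament desmin, had 1964 UPM after bleomycin and 1712 after saline in the high cells. Mylk, a signalling gene that is also part of the score, had 1498 UPM after bleomycin and 1689 after saline. Synpo2, an actin-binding protein and a gene of the gate, had 176 UPM after bleomycin and 280 after saline. The same cut on contractile genes set the high cells of both libraries, so values within 2-fold follow in part from that choice. Kcnmb1, a subunit of the calcium-activated potassium channel that relaxes smooth muscle, had 76.7 UPM after bleomycin and 137 after saline, short of 2-fold. Of 12 measured smooth muscle transcription factor genes 2 were lower and 0 higher, and Myocd, the gene of myocardin, had 29.6 UPM after bleomycin and 35.8 after saline, with under 50 UMIs in either library.

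**Figure D3:**
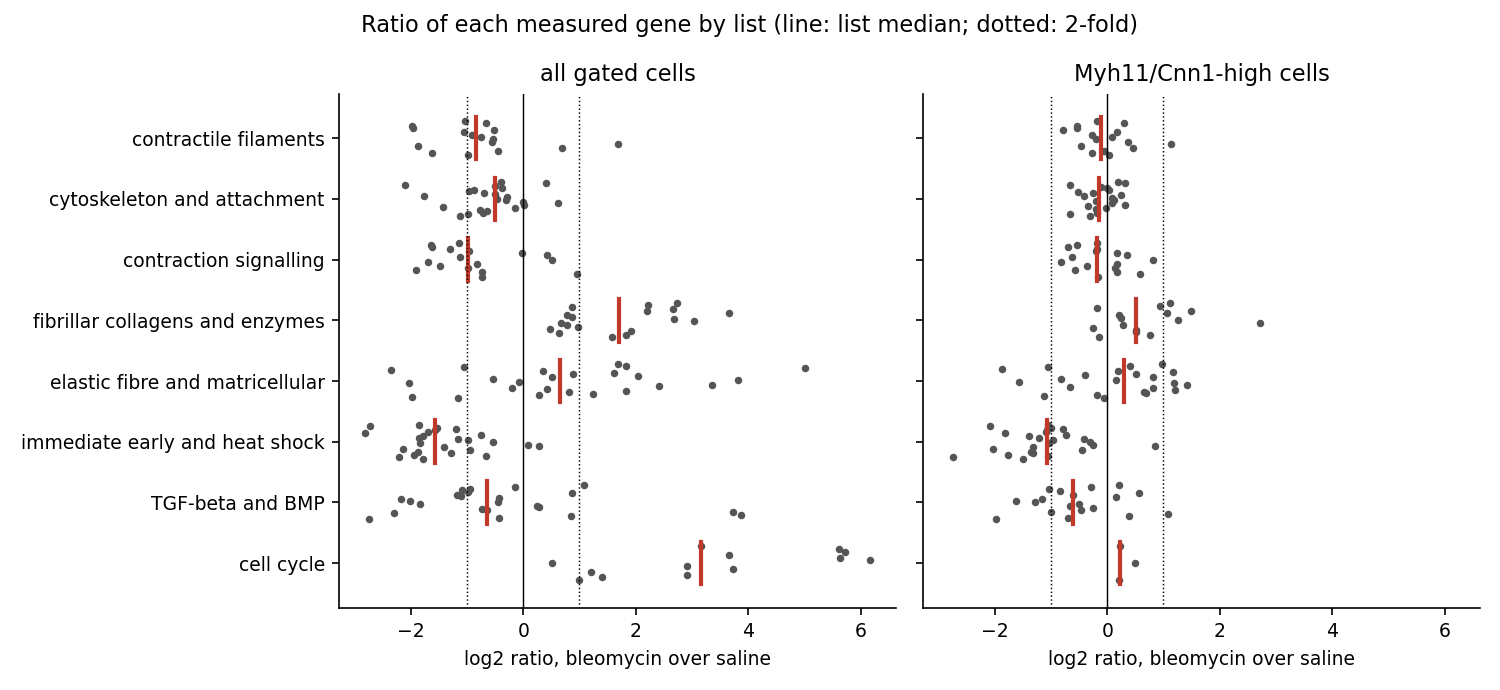
Each point is the log2 ratio of bleomycin over saline of 1 measured gene, by list, over all gated cells (left) and over Myh11/Cnn1-high cells (right). The red line is the list's median and the dotted lines mark 2-fold. The contractile filament list includes genes of the gate and of the score. The median of contractile filaments is −0.83 over all gated cells and −0.12 over high cells, that of fibrillar collagens 1.71 over all and 0.51 over high cells, and that of immediate early genes −1.56 over all and −1.06 over high cells.

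The receptors that make smooth muscle contract were sparse, and the pair of endothelin receptors went opposite ways in the high cells. Ednra, the endothelin receptor A that drives contraction, had 120 UMIs or 162 UPM after bleomycin (interval 134 to 193) and 44 UMIs or 56.3 UPM after saline (40.9 to 75.5), a 2.87-fold ratio (2.02 to 4.15). Thinned to 4000 UMIs, 45.5% of high cells after bleomycin and 16.7% after saline held a UMI of Ednra, against 59.1% after bleomycin and 22.1% after saline without thinning, and the thinned share of endothelial cells was 3.03% after bleomycin and 13.6% after saline. Ednrb, the endothelin receptor B, had 70.0 UPM after bleomycin and 153 after saline, a log2 ratio of −1.12. In pericytes Ednra had 178 UPM after bleomycin and 286 after saline, and in fibroblasts 94.3 UPM after bleomycin and 104 after saline. Whether the change differs between the cell types was not tested, since there is 1 library per group. Across the whole gate Ednra had 88.6 UPM after bleomycin and 56.0 after saline, which is under 2-fold.

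Genes that mark kinds of smooth muscle differed in part. Hhip, an inhibitor of hedgehog ligands used as a marker of airway smooth muscle and nearby myofibroblasts, had 58 UMIs or 78.1 UPM after bleomycin (interval 59.3 to 101) and 287 UMIs or 367 UPM after saline (326 to 412) in the high cells, a log2 ratio of −2.22. Thinned to 4000 UMIs, 11.4% of high cells after bleomycin and 22.2% of those after saline had an Hhip UMI, with 41 shallower saline cells left out. Without thinning the shares were 12.5% after bleomycin and 36.2% after saline, and saline endothelial cells, which should lack it, had 0.787% at a median of 8398 UMIs. In fibroblasts Hhip had 30.2 UPM after bleomycin and 36.3 after saline, and in pericytes 3.33 UPM after bleomycin and 5.41 after saline. Foxf1, a transcription factor of lung mesenchyme, had 71.3 UPM after bleomycin and 194 after saline in high cells, where endothelial cells had 204 UPM after bleomycin and 421 after saline. The other 4 of 6 measured airway smooth muscle genes lay within 2-fold. Of 6 measured vascular smooth muscle genes 0 passed the size rule, where 4.36% of all measured genes were higher and 5.15% lower. Notch3, a receptor of vascular mural cells, had 74.0 UPM after bleomycin and 85.7 after saline.

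Beyond Hhip, Ptch1 and Gas1 of the hedgehog pathway were lower. Ptch1, the receptor and a target of hedgehog signals, had 32.3 UPM after bleomycin and 79.3 after saline in high cells, and Gas1, a co-receptor, had 45.8 UPM after bleomycin and 98.5 after saline. Of 6 measured Notch and hedgehog genes 3 were lower (Ptch1, Gas1 and Hhip) and 0 higher. Of all measured genes 4.36% were higher and 5.15% lower, against which the counts over high cells are to be read. Of 19 measured genes of the TGF-beta and BMP list 1 was higher and 5 were lower, with a median log2 ratio of −0.61. The lower ones included Bambi, a decoy receptor, at 37.7 UPM after bleomycin and 152 after saline, and Id1, a target of BMP signals, at 67.3 UPM after bleomycin and 209.7 after saline. Fst was the higher one, with 68.7 UPM after bleomycin and 32.0 after saline, near its lowest bleomycin level among other lineages of 61.5 UPM. Across the whole gate 3 of 23 were higher (Tgfb1, Grem1 and Fst) and 8 lower, where 13.2% of all measured genes were higher and 6.77% lower.

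Among the lowest ratios in the high cells were genes that saline fibroblasts had little of. Sost (sclerostin, a secreted inhibitor of Wnt signals) had 6 UMIs or 8.08 UPM after bleomycin (interval 2.96 to 17.6) and 182 UMIs or 233 UPM after saline (200.1 to 269), a log2 ratio of −4.69. Thinned to 4000 UMIs, 2.27% of high cells after bleomycin and 33.3% after saline held a UMI of Sost, against 4.54% after bleomycin and 26.9% after saline without thinning, and the thinned share of endothelial cells was 0% after bleomycin and 0.971% after saline. Ngb (neuroglobin, an oxygen-binding globin) had 12.1 UPM after bleomycin and 194 after saline. Thinned to 4000 UMIs, 5.68% of high cells after bleomycin and 26.9% after saline held a UMI of Ngb. Saline fibroblasts had 0.207 UPM of Sost and 7.77 UPM of Ngb, and saline pericytes 32.4 UPM of Sost. Lsmem1, a small membrane protein, had 13.5 UPM after bleomycin and 81.8 after saline. Across the whole gate Sost, Ngb, Lsmem1 and Hhip were also among the 10 lowest ratios, with Sost at 2.89 UPM after bleomycin and 226 after saline. Scgb1a1, the secretory protein of club cells, had 20.2 UPM after bleomycin and 901 after saline, but the lowest other lineage of the saline library also had 837 UPM.

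Immediate early and heat shock genes, which respond within minutes to stress and to handling of tissue, were lower after bleomycin. Of 25 measured genes 17 were lower and 0 higher in the high cells, with a median log2 ratio of −1.06. Among all measured genes 5.15% were lower and 4.36% higher there. Fos had 2372 UPM after bleomycin and 4946 after saline in high cells. Atf3, a stress transcription factor, had 284 UPM after bleomycin and 999.9 after saline, and Klf4, a factor that represses contractile genes, had 112 UPM after bleomycin and 459 after saline. Outside the gate Fos had 1434 UPM after bleomycin and 3596 after saline in fibroblasts. In pericytes it had 955 UPM after bleomycin and 3146 after saline, and in endothelial cells 791 UPM after bleomycin and 2259 after saline, so it was lower after bleomycin there too. The part of tissue handling in these values was not tested.

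Metallothioneins and secreted proteins were among the higher genes of the high cells. Mt1, a metal-binding stress protein, had 6770 UMIs or 9114 UPM after bleomycin (interval 8898 to 9333) and 1535 UMIs or 1963 UPM after saline (1866 to 2063), a log2 ratio of 2.21. In fibroblasts Mt1 had 6818 UPM after bleomycin and 1927 after saline, and in pericytes 3276 UPM after bleomycin and 659 after saline. Mt2 had 4109.8 UPM after bleomycin and 1004 after saline in the high cells. Fkbp5, a target of the glucocorticoid receptor, had 91.5 UPM after bleomycin and 12.8 after saline, and stood at 91.3 UPM after bleomycin and 10.6 after saline in fibroblasts. The level in high cells after bleomycin lay under 2 times the lowest bleomycin level of Fkbp5 among other lineages, 51.4 UPM. Timp4, a protease inhibitor, had 190 UMIs or 256 UPM after bleomycin (interval 221 to 295) and 38 UMIs or 48.6 UPM after saline (34.4 to 66.7), where fibroblasts had 5.06 UPM after bleomycin and 1.66 after saline. Clu (clusterin, a secreted chaperone) had 1089 UPM after bleomycin and 479.5 after saline, where fibroblasts had 20.9 UPM after bleomycin and 12.6 after saline. Over all gated cells Clu was not higher, with 401 UPM after bleomycin and 470.4 after saline, and low bleomycin cells had 18.0 UPM. Serpina3n, a secreted protease inhibitor, had 381 UPM after bleomycin and 57.5 after saline in high cells, and Mthfd2, a mitochondrial enzyme of folate metabolism, had 75.4 UPM after bleomycin and 8.95 after saline.

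Matrix genes moved less in the high cells than over all gated cells. Of 15 measured fibrillar collagen and enzyme genes 5 were higher and 0 lower, with a median log2 ratio of 0.51. Of all 2406 measured genes 4.36% were higher and 5.15% lower, against which the counts here are to be read. Of 6 measured fibrotic fibroblast markers 5 were higher in the same cells (Spp1, Timp1, Tnc, Fst and Col12a1), with a median of 1.94, and their part in the matrix values was not tested. Of these, Spp1, Timp1 and Fst lay under 2 times their lowest bleomycin level among other lineages. Col1a1 had 1053 UPM after bleomycin and 482 after saline, with 13.2% of the bleomycin UMIs in 1 cell and a lowest bleomycin level among other lineages of 428 UPM, while Col3a1 had 1135 UPM after bleomycin and 1281 after saline. Single high cells had a median of 5.55 UMIs per 10000 after bleomycin (0 to 83.7) and 3.37 after saline (0 to 17.1) of Col1a1, so the groups overlapped, and the highest bleomycin cells lay above all saline cells. Mgp, matrix Gla protein, an inhibitor of calcification, had 16781 UPM after bleomycin and 7298 after saline, where fibroblasts had 30380 UPM after bleomycin and 18190 after saline. Sparc, which binds collagen, had 4044 UPM after bleomycin and 1537 after saline. Of 22 measured elastic fibre and matricellular genes 4 were higher and 4 lower. Fbln5, needed for elastic fibre assembly, had 25.6 UPM after bleomycin and 95.9 after saline, and Ltbp4, which binds latent TGF-beta to elastic fibres, had 162 UPM after bleomycin and 481 after saline. Eln, elastin, lay just short of 2-fold with 2618 UPM after bleomycin and 1335 after saline.

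Leaving aside haemoglobin and predicted genes, Spp1 (osteopontin) led the ratios of the high cells with 186 UPM after bleomycin and 2.56 after saline, yet it stood under its level in other lineages. The lowest bleomycin level among those lineages was 591 UPM, and 73.9% of high cells and 81.8% of endothelial cells held a UMI. Thinned to 4000 UMIs these shares were 55.7% of high cells and 48.5% of endothelial cells. Of the 105 genes higher in high cells 75 had at least 2 times the lowest level among the other lineages of the same library, and of the 124 lower genes 96 did. Tnnt2, a troponin of cardiac muscle, had 398 UPM after bleomycin and 66.5 after saline, but 29.1% of its bleomycin UMIs lay in 1 cell.

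The gated cells were next split by Actg2 and Des, the genes of the enteric actin and of desmin. The score, log2 of their UMIs per 10000 plus 1, ran over a wide range, and Otsu's cut over both libraries fell at 18.6 UMIs per 10000. Above it, Actg2/Des-rich cells were 74 of 156 after bleomycin, or 47.4% (interval 39.4 to 55.6), and 104 of 153 after saline, or 68.0% (59.96 to 75.3). Within 0.5 of the cut lay 46 bleomycin and 42 saline cells, so the split marks a range and not a type. Among Myh11/Cnn1-high cells the rich share was 65.9% after bleomycin (55.0 to 75.7) and 69.8% after saline (61.7 to 77.0). The median depth was 9000 UMIs in rich and 15219 in poor cells after bleomycin, and 4850.5 in rich and 4832 in poor cells after saline.

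**Figure D4:**
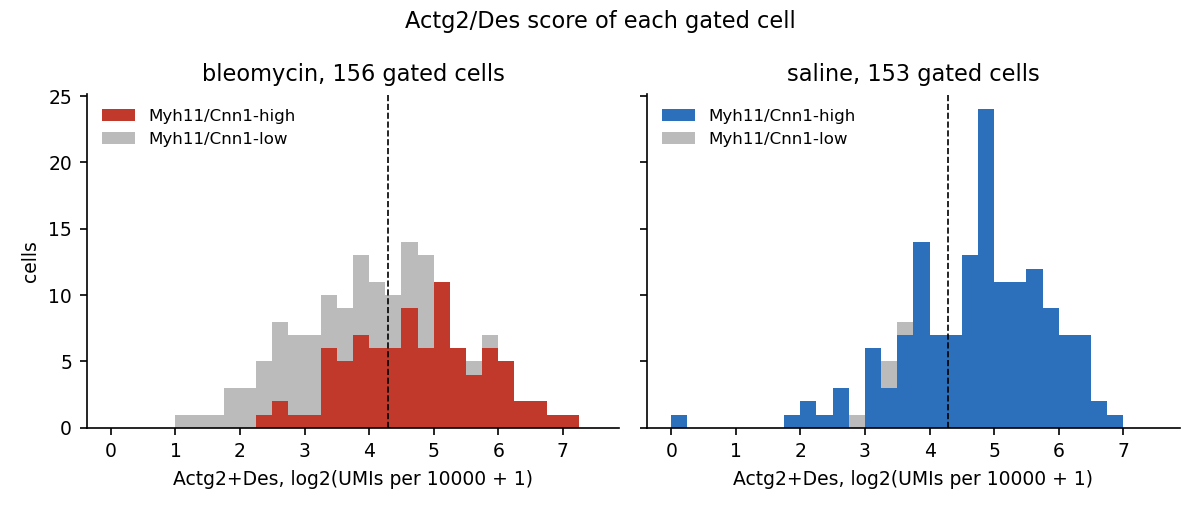
Number of gated cells by Actg2/Des score, bleomycin on the left and saline on the right, coloured by Myh11/Cnn1-high and Myh11/Cnn1-low. The dashed line is the cut at 18.6 UMIs per 10000. Of the low cells after bleomycin 52 lie below the cut and 16 above it, and 30 high bleomycin cells lie below it. In all, 74 bleomycin and 104 saline cells lie above the cut.

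Rich cells had more Actc1 and Cnn1 in both libraries. Of 3156 genes measured after bleomycin 97 (3.07%) were higher and 103 (3.26%) lower in rich than in poor cells, and of 1232 after saline 21 (1.70%) were higher and 16 (1.30%) lower. Centred at the median of all measured genes, which was −0.0733 after bleomycin and 0.113 after saline, 119 were higher and 80 lower after bleomycin, and 11 were higher and 20 lower after saline. Of 1188 genes measured in both libraries 8 (0.673%) were higher in both, 1 (0.0842%) was lower in both, and 0 (0.00%) went opposite ways. The 8 were Actg2 and Des, which made the split, with Actc1, Cnn1, Fam129a, Aspn, Nov and 2200002D01Rik, and the lower one was Gpx3, a secreted peroxidase, with log2 ratios of −1.21 after bleomycin and −1.03 after saline. These libraries differ in treatment and are not replicates of each other. Of the 68 low cells of the bleomycin library 52 are poor, so the contrast is also given within the Myh11/Cnn1-high cells.

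Within high cells 67 of 1141 genes (5.87%) were higher and 28 (2.45%) lower in rich cells after bleomycin, and 19 of 1196 (1.59%) were higher and 15 (1.25%) lower after saline. Actc1 had 1836 UPM in rich and 434 in poor cells after bleomycin, and 2607 in rich and 849.9 in poor cells after saline, a log2 ratio of 2.08 after bleomycin and 1.62 after saline. Within high cells after bleomycin 4 of the genes called in both libraries fell short of 2-fold, with log2 ratios of 0.47 for Fam129a, 0.58 for 2200002D01Rik, 0.84 for Nov and −0.51 for Gpx3, and Nov also did after saline with 0.97. In the poor bleomycin cells 64.9% of the Actc1 UMIs lay in 1 cell. Cnn1, a gene of the score behind the high group, had 1564 UPM in rich and 462 in poor cells after bleomycin, and 2025 in rich and 1007 in poor cells after saline. Aspn (asporin, a matrix proteoglycan) had 584 UPM in rich and 245 in poor cells after bleomycin, and 606 in rich and 276 in poor cells after saline, with 37.5% of the UMIs of rich bleomycin cells in 1 cell. Acta2 and Myh11 did not reach 2-fold in either library, with Myh11 at 1116 UPM in rich and 798 in poor cells after bleomycin, and 1664 in rich and 1077 in poor cells after saline. Across single high cells Actg2 and Cnn1 had a Spearman correlation of 0.664 over 88 cells after bleomycin and 0.446 over 149 cells after saline, and cells of a library share its depth and free RNA.

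Some genes passed the size rule between rich and poor high cells in the bleomycin library alone, and whether this differs between libraries was not tested. Fbxl22, an F-box protein of muscle, had 395 UPM in rich and 32.3 in poor cells after bleomycin, and 256 in rich and 202 in poor cells after saline. Tgfb2, a TGF-beta ligand, had 184 UPM in rich and 27.7 in poor cells after bleomycin, and 165 in rich and 177 in poor cells after saline. Eln had 3176 UPM in rich and 1264 in poor cells after bleomycin, and 1369 in rich and 1258 in poor cells after saline. Mgp was on the other side, with 11059 UPM in rich and 30677 in poor cells after bleomycin, and 6692 in rich and 8647 in poor cells after saline. Mt1 had 6340.1 UPM in rich and 15848 in poor cells after bleomycin, and 1588 in rich and 2797 in poor cells after saline. Ednra had 116 UPM in rich and 272 in poor cells after bleomycin, and 53.7 in rich and 61.9 in poor cells after saline. In the saline library Tgfb2 and Ednra had under 50 UMIs in the higher group and were not measured by the rule. There were 58 rich and 30 poor high cells after bleomycin, and 104 rich and 45 poor after saline. The genes of this paragraph were chosen after their values were seen.

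**Figure D5:**
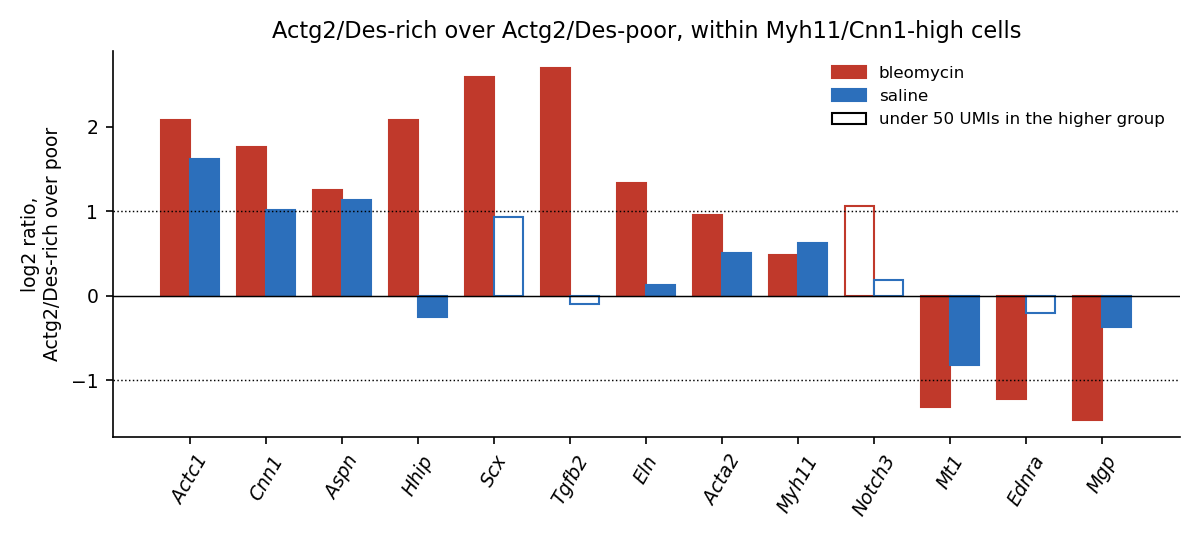
Log2 ratio of Actg2/Des-rich over Actg2/Des-poor cells within Myh11/Cnn1-high cells, bleomycin and saline side by side for 13 genes chosen after their values were seen. Open bars have under 50 UMIs in the higher group, and dotted lines mark 2-fold. Actc1 stands at 2.08 after bleomycin and 1.62 after saline, and Tgfb2 at 2.69 after bleomycin and −0.10 after saline.

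Over all gated cells that were rich, 246 of 2303 genes (10.7%) were higher and 151 (6.56%) lower after bleomycin than after saline. Within poor cells, which hold 52 of the 68 low bleomycin cells, 481 of 2432 (19.8%) were higher and 137 (5.63%) lower, with median log2 ratios of 0.177 in rich and 0.413 in poor cells.

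Against pericytes, the other mural cells of the sort, the high cells had more of contractile genes that neither gate used. There were 84 pericytes after bleomycin and 60 after saline, gated on at least 2 UMIs of Cox4i2 and Higd1b and at least 1 of Pdgfrb. Actc1 had 1427 UPM in high cells and 118 in pericytes after bleomycin, and 2062 in high cells and 227 in pericytes after saline. Tagln had 10434 UPM in high cells and 2511 in pericytes after bleomycin, and 9829.7 in high cells and 2032 in pericytes after saline. Pdgfrb, a growth factor receptor of mural cells that the pericyte gate used, had 102 UPM in high cells and 443 in pericytes after bleomycin, and 61.4 in high cells and 703 in pericytes after saline. These are levels of 1 library each, with no test.

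Lepr, whose promoter drives the Cre, was scarce in the gated cells at the time of the sort. The gated cells had 20 Lepr UMIs or 9.64 UPM after bleomycin and 39 UMIs or 48.5 UPM after saline. Over the high cells Lepr had 17.5 UPM after bleomycin (interval 9.32 to 29.9) and 47.3 after saline (33.3 to 65.2), and with under 50 UMIs it was not measured by the size rule. Thinned to 4000 UMIs, 5 of 88 high cells after bleomycin (5.68%) and 13 of 108 after saline (12.0%) had a Lepr UMI, against 11.4% after bleomycin and 18.8% after saline without thinning. None of the 68 low cells did when thinned, which allows a share of up to 4.41%, and 1 of 68 (1.47%, interval 0.0372 to 7.92) did without thinning. Saline epithelial cells, as background, had a thinned share of 1.72% (0.357 to 4.96) and an unthinned one of 4.71%, at a median of 7429 UMIs. Among other bleomycin cells the thinned share was 14.1% of immune cells, 8.48% of endothelial cells, 5.95% of pericytes and 1.71% of fibroblasts. Among other saline cells it was 19.9% of immune cells, 21.4% of endothelial cells, 23.3% of pericytes and 13.8% of fibroblasts.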

How the data were processed

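Live tdTomato-positive lung cells were sorted and sequenced with 3' v2 chemistry of 10x Genomics, 1 library per group, per the labels' protocols. The authors' deposited files give unnormalized UMI counts for 28692 genes in each barcode. Cell Ranger 2.1.1 and the mm10 genome are named in the submitters' processing notes, and how barcodes were called is not given in the sources consulted. The member rule, gene lists and named genes were chosen with earlier results of these data known. From the counts, Python 3.11.15 with numpy 2.4.6, scipy 1.17.1, pandas 2.3.3 and scanpy 1.11.5 computed sums per group of cells and UMIs per 1000000 (UPM). Log2 ratios used a prior of 1 UPM, and a call needed 50 UMIs in the higher group and a 2-fold ratio. Intervals are 95% exact Poisson for levels, conditional binomial for ratios and Clopper-Pearson for shares, and cover counting error only. A sum of 0 was read as at most 3 counts over the group.

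The named genes were those with the 10 highest and 10 lowest ratios past the rule, without genes of the gate, predicted, ribosomal, immunoglobulin, mitochondrial, sex-linked and haemoglobin genes and those with over 25% of UMIs in 1 cell, up to 4 per list, and 14 fixed genes. Mt1, Mt2, Clu, Fos, B2m, Cxcl12, Col3a1, Eln, Top2a, Aspn, Gpx3 and the genes shown between Actg2/Des-rich and poor cells within high cells were named after their values were seen, and not every gene so ranked is printed. Some genes and lists are not reported here. The other gates were fibroblasts (Pdgfra, with under 10 UMIs of Acta2), pericytes (Cox4i2 and Higd1b, with Pdgfrb), endothelial (Pecam1 and Cdh5), immune (Ptprc) and epithelial cells (Epcam). Acta2-high fibroblasts are thus not in the fibroblast values. The lowest level of a gene among those with at least 100 cells, pericytes aside, served as its background of free RNA. Epithelial cells entered it in the saline library alone, with 191 cells against 4 after bleomycin. Doublets were not removed. Scrublet's own threshold marked 5 bleomycin and 34 saline barcodes, so as an alternative the 160 and 237 with the highest scores were left out, of which 15 and 14 were members. The calling step was tested on simulated data. Other alternatives were other gate limits, thinning to 4000 UMIs, other UMI and fold limits, centred ratios and cells weighted equally.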

Additional observations from a re-analysis of the deposited data

How the results depend on the processing

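No paired analysis was possible because each group is 1 library, and for the same reason no replicate could be left out. The cause was not tested for the changes below, which differ in part by construction in how many cells or genes enter. The share of members was 2.51% after bleomycin with 8 UMIs of the other smooth muscle genes, 2.66% with Cthrc1 at 0, 2.60% when barcodes were thinned first and 1.97% for Myh11/Cnn1-high cells alone, and after saline 2.28% with 8 UMIs. Genes higher and lower after bleomycin over all gated cells were 195 and 129 when members were thinned to 4000 UMIs, 323 and 161 with 100 UMIs, 1857 and 1966 with no filter, and 228 and 124 with a 3-fold rule. With ratios centred at 0 there were 359 higher genes, and with genes of at least 50 UPM averaged over both libraries 223. The split into high cells was chosen after the data were seen and gave 105 higher and 124 lower genes, or 99 and 115 without the 2 cells with transcripts of other lineages. There the log2 ratio changed sign for Igfbp6 (−2.14, and −2.11 without the 2 cells), Lgr6 (0.05), Meox2 (−0.98), Myl9 (0.18), Ntrk3 (0.23 and 0.21), Perp (0.13) and Saa3 (−0.70 and −0.69). The share of Actg2/Des-rich cells after bleomycin was 39.1% with the median as the cut and 65.9% within high cells. Rich over poor after bleomycin gave 44 higher and 52 lower genes when thinned, 54 and 50 with 100 UMIs and 1446 and 1297 with no filter, 227 lower between the top and bottom tertiles of the score, and 28 lower within high cells. Rich over poor after saline gave 12 higher and 6 lower when thinned, 7 and 7 with 100 UMIs, 2453 and 1870 with no filter, 11 higher when centred, and 27 lower with the median as the cut and 3 without the highest doublet scores. Lepr after bleomycin had 16 UPM when thinned. The other 59 values of the main results stayed within their limits (the counting interval, or 1.5 times for a count). Of the single genes' values 1255 did so too, and 337 moved further, with no called gene among them changing sign. Depth limits genes under 50 UMIs, such as Lepr and most receptors, and the saline cells most.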

Other observations

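Genes of inflammation and antigen presentation and of secreted growth factors were also read in the Myh11/Cnn1-high cells, as values with no test. Of 10 measured interferon and antigen presentation genes 2 were higher and 6 lower after bleomycin by the same rule of 50 UMIs and 2-fold, where 4.36% of all 2406 measured genes were higher and 5.15% lower. H2-K1, a heavy chain of class I antigen presentation, had 108 UPM after bleomycin and 364 after saline, and B2m, its light chain, had 1034 UPM after bleomycin and 2181 after saline. Irf1, a transcription factor of the interferon response, had 26.9 UPM after bleomycin and 94.6 after saline, whereas Isg15, an interferon-induced ubiquitin-like protein, had 133 UPM after bleomycin and 23.0 after saline. The lowest level of H2-K1 among other lineages was 167 UPM after bleomycin and 425 after saline, above the high cells in both libraries, and that of Irf1 was 31.6 UPM after bleomycin and 80.4 after saline. The lowest level of B2m among other lineages was 1951 UPM after bleomycin and 802 after saline, with epithelial cells among those lineages in the saline library alone. Of 10 measured inflammatory and acute phase genes 3 were higher and 2 lower, with Cxcl12, a chemokine of stromal cells, at 399.8 UPM after bleomycin and 162 after saline.

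The counts of the lists below are to be read against the same 4.36% and 5.15%. Of 8 measured growth factor genes 1 was higher and 2 were lower in the high cells. Figf, a ligand of vascular endothelial growth factor receptors, had 129 UPM after bleomycin and 62.6 after saline. Igfbp5, a binding protein of insulin-like growth factors, had 132 UPM after bleomycin and 418 after saline. Of 9 measured dystrophin complex and integrin genes 0 passed the rule, and of 5 measured p53 targets 1 was higher, Phlda3, with 155 UPM after bleomycin and 70.3 after saline. The bleomycin level of Phlda3 lay under 2 times its lowest bleomycin level among other lineages, 99.8 UPM.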
